A study of Homo sapiens with 3 samples.

Results

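CYLD and 9 genes of the NF-kappaB pathway were followed in A2780 cells with and without exogenous miR-181a. The genes were chosen by symbol: CYLD, TNFAIP3, NFKB1, NFKB2, RELA, RELB, NFKBIA, IKBKB, IKBKG and CHUK, and every RefSeq transcript listed under these symbols was used. They account for 19 of 28848 transcripts with a value in all 3 libraries and for 10 of 18674 genes.

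NF-kappaB is a family of transcription factors that pair as dimers and are held in the cytoplasm by IkappaB proteins. In the canonical branch a kinase complex made of the catalytic subunits IKKalpha (CHUK) and IKKbeta (IKBKB) and the scaffold NEMO (IKBKG) marks IkappaB for destruction, which frees dimers such as RELA with the NFKB1 product. In the alternative branch the NFKB2 precursor is processed and pairs with RELB. Chains of linked ubiquitin carry the signal from receptors to the kinase complex, and CYLD, a deubiquitinase and tumour suppressor, removes such chains, while the TNFAIP3 product A20 edits them. CYLD is a reported target of the miR-181 family, which is why it stands beside the pathway here.

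The cells were A2780, a line from an undifferentiated ovarian tumour. The control was 1 library of cells with the empty pBABE vector, and 2 libraries came from cells that stably expressed miR-181a, called pool 1 and pool 2 here. The labels name these cells polyclonal pools in one field and clones in another and do not say whether they were separate cultures, so p-values measure only the spread between the pools, which may be technical. Each value is the median read coverage over 50 bp windows of a transcript, which is a level per length, so genes can be set side by side within a library. No read counts were given with these values, so the depth behind each is unknown.

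Before any gene is compared, the vector library has to be described, because it stands apart from the pools and is the sole control, so no result can be given without it. It listed 12.8% of transcripts at 0, against 32.3% in pool 1 and 32.2% in pool 2. Of the 8822 transcripts at 0 in both pools, 5549 were above 0 in the vector library. Among transcripts with a pool mean of 1 to 10, 14.3% had a vector value over 4 times the pool mean, and 2.41% did so at 10 to 50. Transcripts of 1 gene that had identical values in the pools often had unequal vector values: in 314 of 1408 such sets (22.3%) they were over 2 times apart. Marker genes of other cell types were measured as well. The summed coverage of 12 immune markers was 68.1 in the control, against 4.88 and 3.77 in pools 1 and 2, and that of 6 endothelial markers was 222, 0.28 and 0.20. The fibroblast sum ran the other way: over 6 markers it was 566 in the control, 1785 in pool 1 and 1453 in pool 2. COL3A1 was at 249, 986 and 717, while COL1A1, alone of the 6, was highest in the control, at 7.41, 0 and 0.706. The leukocyte marker PTPRC was at 0 in both pools, and in the vector library 2 of its 4 transcripts were at 0 and the others at 5.55 and 5.79. Of 6 markers of ovarian carcinoma lineage, PAX8, WT1, MUC16 and ESR1 were listed at 0 in both pools, which does not exclude reads for them. The 6 summed to 109 in the control, mostly from 1 ESR1 transcript at 104, and to 0.68 and 0.58 in the pools. The sum of 7 epithelial markers was 130, 17.9 and 16.8, although CLDN4 ran the other way, at 0.589, 1.76 and 1.21. The part of these differences in the results below was not tested.

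CYLD was lower in both pools than in the control, in each of its 3 transcripts. For the transcript with the highest mean, NM_001042412, the control library gave 43.5, pool 1 gave 3.70 and pool 2 gave 2.93. The pools lay close together and far below the control, at a mean of 3.31 ± 0.54 (SD, n = 2). CYLD fell by 3.37 on the log2(coverage + 1) scale (SE 0.27, 95% interval -4.42 to -2.32), with a limma adjusted p of 0.0222 over all 12552 genes tested. The gene lies on chromosome 16, 50775961 to 50835846 on the plus strand (GRCh37).

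The size of the fall in CYLD depended on the transcript. NM_015247 was at 43.4 in the control, 3.43 in pool 1 and 2.75 in pool 2. NM_001042355 had the same pool values as NM_001042412, 3.70 and 2.93, but a vector value of 13.1. The rule of the highest mean therefore chose between them by the vector value alone, and the test above used that same value. The vector library was thus 14.0, 13.1 or 3.96 times the pool mean, depending on the transcript read. With the transcript chosen by its pool mean alone, NM_001042355 and NM_001042412 tied, and the order of listing took NM_001042355. The difference was then -1.72 with a limma adjusted p of 0.0379. Ratios of vector to pool mean at least as high as those of CYLD were found in 3.41% to 14.7% of transcripts whose pool mean was within a factor of 2 of its own.

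**Figure D1:**
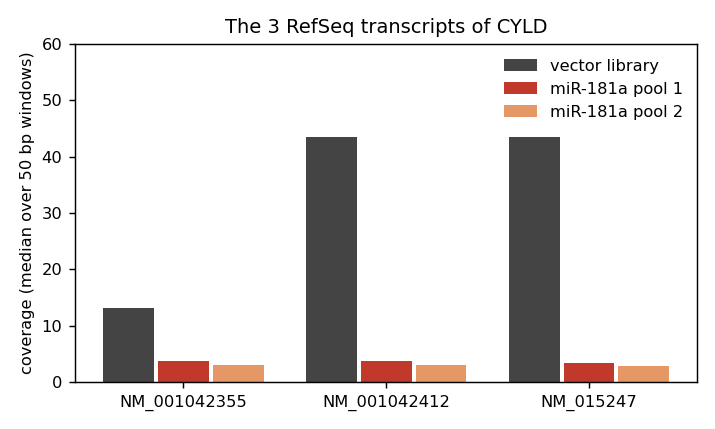
Coverage (median over 50 bp windows, linear axis from 0) of the 3 RefSeq transcripts of CYLD, with 1 bar for each library. The pools are at 2.75 to 3.70 in each transcript, while the vector library is near 43 in 2 of them and at 13.1 in NM_001042355.

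The sequences that tie CYLD to miR-181a are the seed of the microRNA and partial matches to it in the 3 prime UTR of CYLD. The 4 mature miR-181 forms, from RefSeq (GRCh38.p14), share one seed, bases 2 to 8 from the 5 prime end, shown in capitals.
miR-181a-5p: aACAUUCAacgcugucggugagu
miR-181b-5p: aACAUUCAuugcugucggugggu
miR-181c-5p: aACAUUCAaccugucggugagu
miR-181d-5p: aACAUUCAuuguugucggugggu
The seed pairs in full with TGAATGT. The letters GAATGTA pair with the seed up to but not including base 8, and place an A opposite the first base of the microRNA. The 3 prime UTR of CYLD, 5427 bases in the transcript used (GENCODE on GRCh37), held no full match and 2 copies of GAATGTA, in capitals below. They begin at bases 345 and 4436 of the UTR and lie on chromosome 16.
CYLD chr16:50830752-50830781, plus strand: ttagtccattgaGAATGTAaataaatgtgt
CYLD chr16:50834843-50834872, plus strand: cagaggaagaagGAATGTAaaccccttaaa
Of the 10 genes, only CYLD had a match of either kind. Over 12340 tested genes with a 3 prime UTR, 20.7% had TGAATGT, 14.7% GAATGTA and 26.3% at least 1 of them. Among the 1068 genes whose UTR was within 25% of the length of that of CYLD, 38.1% had GAATGTA and 9.55% had it 2 or more times, so the presence of these letters is common at this length. Of these 1068, 51.9% had TGAATGT, which CYLD lacks, and 63.6% had at least 1 of the 2 kinds. A match in letters does not show a site in use, and no value for miR-181a was among those analysed.

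The feedback inhibitors TNFAIP3 and NFKBIA, both known NF-kappaB target genes, took different courses. TNFAIP3 (NM_006290, chromosome 6, 138188351 to 138204451) was at 25.3 in the control and listed at 0 in both pools. It fell in the limma test (adjusted p = 6.42e-06), but a gene at 0 in both pools enters the test only through its vector value, so its direction was fixed by the filter and the spread behind its p-value is 0. Of 8821 other transcripts at 0 in both pools, 6.28% had a vector value at least as high. NFKBIA, which encodes IkappaBalpha, had 12.7 in the control, 17.6 in pool 1 and 16.2 in pool 2. Both pools were above the control, at 16.9 ± 1.03 (SD, n = 2), and the difference of 0.39 (SE 0.28, 95% interval -0.70 to 1.47) was not past the test (limma adjusted p = 0.418). In the pools NFKBIA was thus at the level of the middle genes of the pathway, and TNFAIP3 was at 0.

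Both feedback genes carry the kappaB motif, the sequence bound by NF-kappaB, in the 300 bases around their start site. The RefSeq promoters (GRCh38.p14, 250 bases before to 50 after the start) are shown because the levels of these genes part, with matches to the kappaB consensus on either strand in capitals.
TNFAIP3 chr6:137867009-137867308, plus strand: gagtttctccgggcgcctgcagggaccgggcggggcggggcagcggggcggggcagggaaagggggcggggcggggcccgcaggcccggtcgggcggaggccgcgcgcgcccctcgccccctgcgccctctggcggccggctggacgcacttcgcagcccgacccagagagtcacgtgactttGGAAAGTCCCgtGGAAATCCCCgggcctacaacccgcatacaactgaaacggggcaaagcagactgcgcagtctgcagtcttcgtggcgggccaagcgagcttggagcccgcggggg
NFKBIA chr14:35404700-35404999, minus strand: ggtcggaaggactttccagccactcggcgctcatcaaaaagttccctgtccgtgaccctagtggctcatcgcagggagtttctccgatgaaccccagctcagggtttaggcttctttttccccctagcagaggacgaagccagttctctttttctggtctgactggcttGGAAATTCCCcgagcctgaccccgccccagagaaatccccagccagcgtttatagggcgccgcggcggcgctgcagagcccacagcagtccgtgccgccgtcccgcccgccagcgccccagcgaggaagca
TNFAIP3 has matches that begin 67 and 55 bases before the start site, and NFKBIA has 1 that begins 81 bases before it. Of 8 of the genes with a promoter in the table, 5 had a match in at least 1 of their promoters: NFKB1, NFKB2, TNFAIP3, NFKBIA and CYLD. A match was found in 11.3% of all 35116 promoters and in 13.3% of all 27305 genes with a promoter, counting a gene with several promoters once. Among the promoters of NFKB1, 1 holds the letters GGGAATTTCC, 49 bases before the start site, and 1 of the 2 NFKB2 promoters with matches holds a pair that overlap each other. These are letters in a window, present in genes that were higher and in genes that were lower in the pools.

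The kinase complex was measured in all 3 of its subunits, and none passed the test. IKBKB, the main catalytic subunit of canonical signalling, had 7.53 in the control, 16.3 in pool 1 and 11.3 in pool 2. Both pools were above the control, and its difference was 0.77 (SE 0.39, 95% interval -0.76 to 2.31, limma adjusted p = 0.309). IKBKG, the scaffold, had 17.2, 27.2 and 17.4 in the transcript used, so pool 2 was level with the control and pool 1 above it, with a difference of 0.32 (SE 0.43, limma adjusted p = 0.631). Its 4 transcripts ranged from 11.7 to 17.2 in the control, 21.6 to 27.2 in pool 1 and 14.5 to 17.4 in pool 2. A near-identical partial copy of IKBKG lies beside it on the X chromosome, and reads could be split between them, so its values are uncertain. CHUK, the catalytic subunit that also drives the alternative branch, had the least spread over the libraries, with 11.0 in the control, 10.2 in pool 1 and 10.4 in pool 2. Its difference was -0.08 (SE 0.26, 95% interval -1.11 to 0.95, limma adjusted p = 0.848). The ratio of IKBKB to CHUK coverage was 0.69 in the control, 1.59 in pool 1 and 1.09 in pool 2. IKBKB was thus below CHUK in the control and above it in the pools, though close to it in pool 2, and this order was not tested.

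Among the transcription factors, RELB stood apart from the other 3. RELB (NM_006509, chromosome 19, 45504719 to 45541450) was at 48.3 in the control, 6.23 in pool 1 and 3.24 in pool 2. Both pools were far below the control, but pool 1 was 1.92 times pool 2, the widest gap between the pools among the 9 genes above 0 in them. The difference of -3.15 (SE 0.52, 95% interval -5.19 to -1.12) met a rule on size, 1 log2 unit or more in both pools, but missed the test (limma adjusted p = 0.0786). Ratios of vector to pool mean as high as that of RELB were seen in 2.85% of transcripts whose pool mean was within a factor of 2 of its own. RELB has 1 transcript in the table, so no other transcript can be set beside this value.

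NFKB1, which encodes p105 and p50, had 12.2 in the control, 25.5 in pool 1 and 18.7 in pool 2. Both pools were above the control, with a difference of 0.79 (SE 0.36, 95% interval -0.61 to 2.19, limma adjusted p = 0.277), and its 2 transcripts had the same values. NFKB2, which encodes p100 and p52, had 12.6, 20.5 and 13.7, again with pool 1 the highest and pool 2 just above the control, and a difference of 0.39 (SE 0.42, limma adjusted p = 0.558). RELA, the p65 subunit, went the other way, at 21.2 in the control, 20.3 in pool 1 and 13.3 in pool 2. Its difference of -0.35 (SE 0.42, 95% interval -1.99 to 1.30) was not past the test (limma adjusted p = 0.601), and against its other transcript, at 19.5 in the control, pool 1 was the highest library. The ratio of NFKB1 to RELA coverage was 0.58 in the control, 1.26 in pool 1 and 1.40 in pool 2.

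**Figure D2:**
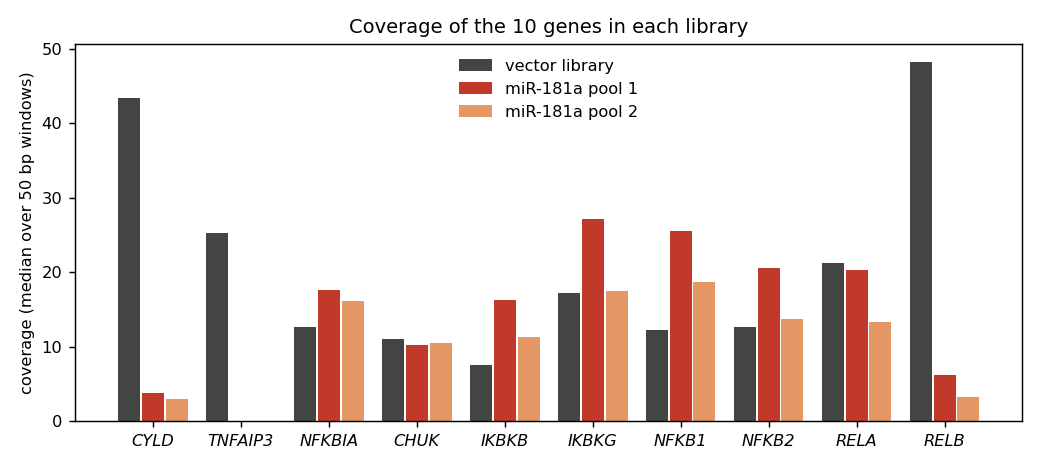
Coverage (median over 50 bp windows, linear axis from 0) of the 10 genes, with 1 bar for each library and no error bars because each bar is 1 library. In the transcripts used, CYLD, TNFAIP3 and RELB are the 3 highest in the vector library and the 3 lowest in both pools. The other 7 genes lie between 7.53 and 27.2 in every library. Another CYLD transcript is at 13.1 in the vector library.

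The order of levels followed from this. In the vector library RELB (48.3), CYLD (43.5) and TNFAIP3 (25.3) were the highest of the 10 genes and IKBKB (7.53) the lowest. In both pools the same 3 genes were the lowest, in the order RELB, CYLD and TNFAIP3, and IKBKG and NFKB1 were the highest. The rank of CYLD in the vector library depended on the transcript: the one at 13.1 there would lie below RELA (21.2) and IKBKG (17.2). The other 7 genes ranged from 7.53 to 21.2 in the control, 10.2 to 27.2 in pool 1 and 10.4 to 18.7 in pool 2. Within this middle range the pools themselves disagreed on the order: NFKBIA was below RELA in pool 1 and above it in pool 2, and neighbours such as NFKB2 and RELA differed by less than their spread between pools.

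**Figure D3:**
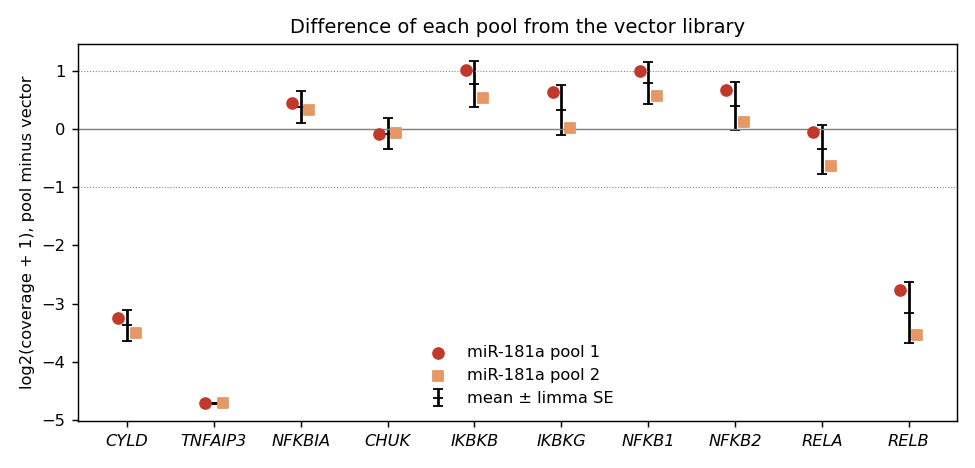
Difference of log2(coverage + 1) from the vector library for pool 1 (circles) and pool 2 (squares), with the limma mean and its standard error in black. CYLD, TNFAIP3 and RELB lie between -2.77 and -4.72 in both pools, and the other 7 genes lie between -0.63 and 1.02.

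Counted over the 10 genes, none rose and 2 fell, CYLD and TNFAIP3, where 1% of all tested genes rose and 21.7% fell. The filter on low values was at 2.43. Of the 9 genes with a pool mean above it, CYLD alone fell, beside 4.4% of the 10102 such genes overall. At an unadjusted limma p of 0.05, 0 of the 10 were higher and 3 lower, but all tested genes were not counted at this level, so these counts have no background. By the size rule none was higher and 3 were lower, against 2.53% and 27.3% of all tested genes. Both pools were above the vector value in 5 genes and below it in 5, against 44.6% and 41.8% of all genes. These shares are near the background or rest on 1 gene, and are not a result about the pathway. The median difference of the 10 genes was 0.12, beside 0.07 over all tested genes. The 7 genes with a pool mean of 10 to 30, a range chosen after the values were seen, had 5 above and 2 below, against 53.6% and 28% of tested genes in that range. Calls in this middle range moved with the scaling. With library medians set equal, 5 rose (NFKB1, NFKB2, NFKBIA, IKBKB and IKBKG) and 3 fell, RELB joining CYLD and TNFAIP3. Of all 12552 tested genes, 6355 rose and 3701 fell there, and the median difference of all tested genes went from 0.07 to 0.49. With the pools shifted down by the median ratio to the control of genes above 50, none rose and 5 fell. RELB, RELA and CHUK joined CYLD and TNFAIP3. Of all 12552 tested genes, 685 rose and 5809 fell with this shift, and that median went to -0.41. The direction of NFKB2, NFKBIA, IKBKG, RELA and CHUK turned under at least 1 scaling, while NFKB1 and IKBKB stayed higher and CYLD, TNFAIP3 and RELB lower in every scaling run.

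**Figure D4:**
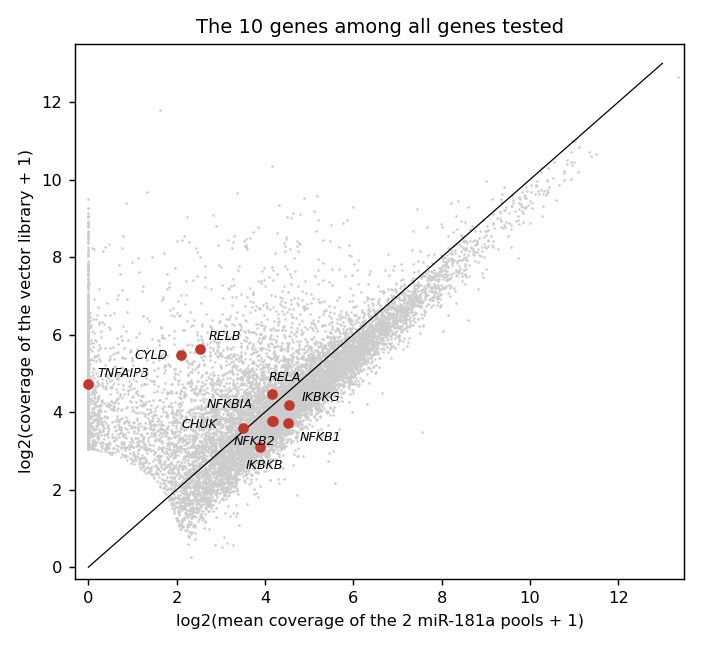
log2(coverage + 1) of the vector library against log2(mean coverage of the pools + 1) for the 12552 genes tested (grey) and the 10 genes (red), with the line of equal values. CYLD, RELB and TNFAIP3 lie in the wide band of genes above the line at low pool coverage, and the other 7 genes lie near the line.

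The pools differed from each other in the same direction in most of the genes. Of the 10, 8 had a lower value in pool 2, as did 77.2% of all tested genes, and the median difference of pool 2 from pool 1 was -0.27 over all tested genes. IKBKG, RELA and NFKB2 were 1.56, 1.53 and 1.49 times as high in pool 1, NFKBIA 1.09 times and CHUK 0.98 times.

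Genes whose values ran most like those of CYLD over the 3 libraries were TRNT1, TTC9C and EXOSC2, by the distance of their centred log2 values among 7223 genes with a pool mean above 10. TRNT1, the enzyme that adds the CCA end to tRNAs, had 178 in the control, 17.8 in pool 1 and 14.5 in pool 2, at a distance of 0.02 log2 units. TTC9C had 284, 28.7 and 23.2, and EXOSC2, a subunit of the RNA exosome, had 631, 67.5 and 58.4. With 3 libraries many genes share such a pattern.

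The wider pathway was described by 5 lists with 90 genes, all of them in the table, of which 66 passed the filter on low values. None rose by limma and 18 of the 66 fell, where 21.7% of all tested genes fell. At an unadjusted limma p of 0.05, 1 was higher and 23 were lower, again with no count over all tested genes beside them. The filter kept genes with a mean coverage over the libraries above 2.43. Of the 18, 15 had a pool mean at or below this level, 8 of them at 0 in both pools, so they entered the test only through the vector library and their direction was fixed by the filter. The other 3 were CD40, NFKBIE and TAX1BP1. Of the 50 genes with a pool mean above the filter level these 3, or 6%, fell, beside 4.4% of the 10102 such genes overall. The median difference of the 50 was 0.26, and that of the 10102 was 0.28. Of 10 genes that fell and have several transcripts, 3 were lower by the size rule in each of them. The summed immune, endothelial, epithelial and ovarian carcinoma lineage markers given above were also higher in the control, and the fibroblast sum was lower. Their part in these counts was not tested.

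Receptors and ligands were mostly low. Of 18 measured, 11 were listed at 0 in both pools, or 61.1%, beside 32.3% of all 18674 genes, and 9 were tested. Of these 9, 7 fell, beside 21.7% of all tested genes, and the filter fixed the direction of 6 of them, which were at 0 in both pools: TNFRSF1B (18.1 in the vector library), TNFRSF11A (9.44), IL1R1 (33.3), IL1RAP (28.5), TLR4 (77.1) and IL1B (11.8). The main TNF receptor TNFRSF1A was the highest of the list in both pools, at 32.7 in the control, 53.1 in pool 1 and 38.7 in pool 2, and was not past the test (limma adjusted p = 0.408). The seventh gene that fell was CD40, a receptor that signals through both branches, with 9.34, 3.59 and 3.05 (limma adjusted p = 0.0374). This call was lost in 5 of 9 alternatives, with no filter (limma adjusted p = 0.0507) and with quantile normalization, a pseudocount of 0.1, the mean of the transcripts or no variance trend (0.0804 to 0.158). Its other transcript had 0.574 in the vector library and 3.59 and 3.16 in the pools, which is the opposite direction. TNF and IL1A, named after their values were seen, were listed at 0 in every library.

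Adaptors and upstream kinases were all tested, and 3 of 21 fell, beside 21.7% of all tested genes. Each of the 3 had a pool mean below the filter level, so that the filter fixed their direction. IRAK4, a kinase below the interleukin-1 and Toll-like receptors, had 139 in the vector library and 1.22 and 1.44 in the pools (limma adjusted p = 0.00567), and 4 of its 5 transcripts were lower by the size rule, while the other had 1.61, 0.684 and 1.16. MYD88, the adaptor of the same receptors, fell from 6.98 to 0.349 and 0.255 (limma adjusted p = 0.00195) in 1 of 5 transcripts, and missed the test with quantile normalization (limma adjusted p = 0.0523). BIRC3, a ubiquitin ligase, had 17.1 in the vector library and was at 0 in both pools. TRADD, which links TNFRSF1A to its signalling complex, had 41.0, 9.68 and 7.10 and did not pass (limma adjusted p = 0.0781). None of the 18 genes above the filter level in the pools fell, beside 4.4% of the 10102 such genes overall. The median difference of the 18 was 0.33.

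Of the linear ubiquitin ligase and other regulators, 15 of 16 were tested and 1 fell, beside 21.7% of all tested genes. All 15 had a pool mean above the filter level, so the nearer background is the 4.4% of the 10102 such genes that fell. The median difference of the 15 was 0.39. TAX1BP1, an adaptor of A20, fell from 101 in the vector library to 24.9 in pool 1 and 22.9 in pool 2 (limma adjusted p = 0.0324), and its other transcript had 57.5 in the vector library with the same pool values and did not pass (limma adjusted p = 0.0973). SPATA2, which bridges CYLD to the linear ubiquitin ligase, had 21.6, 5.45 and 3.85 and did not pass (limma adjusted p = 0.0736). In its other transcript the values were 4.03, 5.01 and 3.85, so the control lay within the range of the pools. RBCK1, a subunit of that ligase, had 89.0, 54.7 and 31.3 in one transcript and 21.9, 54.2 and 31.5 in the other, so that the direction depended on the transcript, and it was not past the test (limma adjusted p = 0.277). USP21, a deubiquitinase, had 13.6, 31.6 and 28.2, both pools above the control (limma adjusted p = 0.129).

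The other NF-kappaB and IkappaB proteins numbered 7, all tested, and 1 fell, beside 21.7% of all tested genes. Of the 6 with a pool mean above the filter level this same 1 fell, beside 4.4% of the 10102 such genes overall. NFKBIE, which encodes IkappaBepsilon, fell from 8.59 in the vector library to 3.36 and 2.88 (limma adjusted p = 0.0328). This call was lost in 3 of 10 alternatives, with a pseudocount of 0.1 (limma adjusted p = 0.0729), with no variance trend (0.0778) and with quantile normalization, where the difference was -0.0042 (0.963). BCL3, a nuclear IkappaB protein, was the single gene of the wider lists higher by the size rule, at 1.30, 6.84 and 3.61, and was not past the test (limma adjusted p = 0.199).

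Reported NF-kappaB target genes were listed at 0 in both pools in 10 of 28, or 35.7%, near the 32.3% of all 18674 genes, and 14 were tested. Of these 14, 6 fell, beside 21.7% of all tested genes: ICAM1, TNFAIP8, CD83, CD44, LIF and CSF1. Each of the 6 had a pool mean below the filter level, so the filter fixed their direction. Of the 8 target genes above that level none fell, beside 4.4% of the 10102 such genes overall. CSF1, a macrophage growth factor, had 673 in the vector library and 0.76 and 0.857 in the pools in 1 of its 4 transcripts, while the other 3 had vector values of 1.49 to 2.08. CD83 had 21.1, 0.625 and 0.898, and both of its transcripts were lower by the size rule. LIF, a cytokine, had 18.3 in the vector library and 0.243 in each pool, and ICAM1, an adhesion molecule, had 8.36, 0.156 and 0. CD44, the hyaluronan receptor, had 11.9 in the vector library and was at 0 in both pools. TNFAIP8 had 7.94, 0.822 and 0.945 in one transcript and 0.842, 1.23 and 1.08 in the other, which ran the opposite way. The highest target in the pools was SOD2, the mitochondrial superoxide dismutase, at 41.3 in the control, 77.4 in pool 1 and 65.8 in pool 2, which was not past the test (limma adjusted p = 0.172).

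**Figure D5:**
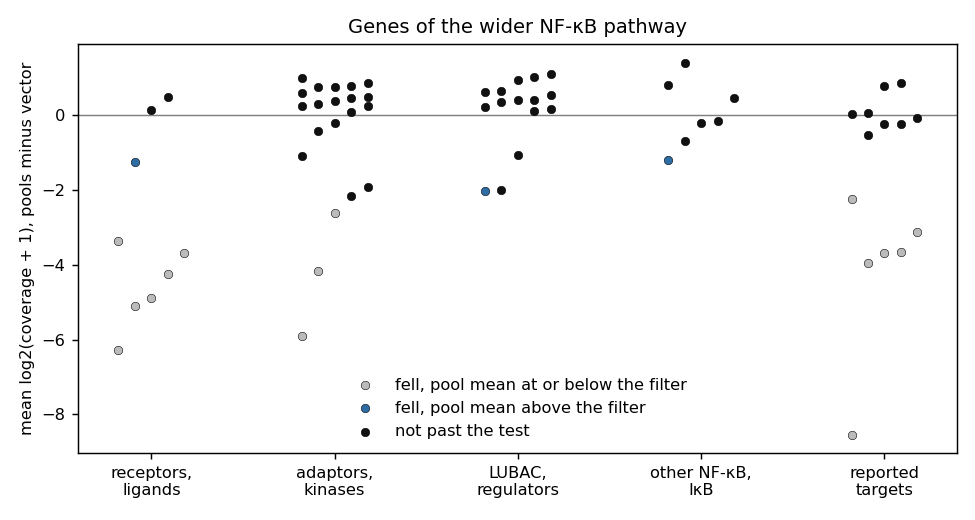
Mean difference of log2(coverage + 1) of the pools from the vector library for the 66 tested genes of 5 lists of the wider pathway, 1 point per gene. Grey points are the 15 genes that fell with a pool mean at or below the filter level, blue points the other 3 that fell, and black points those that did not pass the test.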

How the data were processed

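Poly-A RNA of A2780 cells was sequenced in 3 libraries. Reads were mapped to hg19, per the labels' protocols, and the deposited signal is the median coverage over sliding windows of each transcript. No source used here names the aligner. Log transformation and quantile normalization are also named there, but the values are linear and their distributions differ. The table has 29156 transcripts. The 308 with no vector value were left out, none of them from the lists used here. Date-like symbols (54 transcripts) were restored by accession.

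Each gene was represented by its transcript with the highest mean over the libraries. Where pool values were equal, this rule took the transcript with the highest vector value, which favours a fall. The marker sums used another rule, the transcript with the highest pool mean, or the first listed where these tied. Some markers, such as PTPRC and MSLN, therefore entered the control sum at 0 although another of their transcripts was above 0 there. Values were taken as log2(coverage + 1), which understates changes at low coverage. Genes in the lowest 25% of those not at 0 throughout were left out. The pools were compared with the vector library in limma 3.58.1 (R 4.3.3) with a variance trend, 1 residual degree of freedom and Benjamini-Hochberg adjustment at 0.05, so the vector library, a single sample, is taken to be as variable as the pools. The code was tested on simulated data. Genes were named by rule: the 10 genes; in each list those past the test, the 3 with the highest pool coverage and the 3 with the largest shared difference, of which examples are given; and the 3 genes nearest to CYLD. The genes, lists and alternatives were chosen with earlier results of these data known. Gene spans and UTRs come from GENCODE on GRCh37, the assembly of hg19.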

Additional observations from a re-analysis of the deposited data

How the results depend on the processing

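CYLD stayed lower and past the limma test in all 11 alternatives with a test, with log2 differences of -3.85 to -1.72 and adjusted p up to 0.0392, and lay between -3.50 and -3.24 with either pool left out. TNFAIP3 passed in the 9 that kept it, but at 0 in both pools it could only be lower there, so these passes are not support. RELB stayed lower in all 11 and passed in 5 of them. None of the 10 genes rose in the analysis reported, 5 rose with library medians set equal and 4 with quantile normalization, and 5 fell with the shift by genes above 50. Of the wider lists none rose and 18 fell in the analysis reported. Those that rose numbered 1 with a filter at the median, 2 among genes above 0 in both pools, 30 with medians set equal, 33 with quantile normalization and 3 with the shift, and those that fell 9 with a filter at the median and 30 with the shift. Over all genes, 126 rose and 2725 fell. There, 278 rose and 5626 fell with no filter, 402 and 1476 with a filter at the median, 685 and 5809 with the shift, while 611 rose among genes above 0 in both pools, 6355 with medians set equal and 5641 with quantile normalization. Signs turned with the shift for NFKB2 (-0.088), NFKBIA (-0.091), IKBKG (-0.15) and TNFRSF1A (-0.018), and for RELA (0.070 and 0.024) and CHUK (0.34 and 0.64) with medians set equal and quantile normalization. With a size threshold of 0.5, 2 of the 10 genes and 12 of the wider lists were higher, against 0 and 1. All tested genes were not counted at this threshold, so these counts have no background and are not a result about the pathway. Beyond the construction of each scaling, the cause was not tested. No paired analysis was possible because the vector group has a single library and no number shared with the pools. Depth is unknown, and reads may exist for a gene whose window median is 0.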
